A study of Mus musculus with 6 samples.

Results

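The platelet-derived growth factor (PDGF) family genes described here are the 4 ligand genes Pdgfa, Pdgfb, Pdgfc and Pdgfd and the 2 receptor genes Pdgfra and Pdgfrb. They are 6 of the 18193 genes that the array measured with a probe set of their own. Every probe set that the platform annotation gives to 1 of these symbols and to no other was taken, which gave 14 of the 45037 probe sets (a probe set is a group of short probes read as 1 value). Pdgfra and Pdgfd had 3 probe sets each, and the other 4 genes had 2 each. Expression was measured on 6 Affymetrix 3' arrays of total RNA from cultured mouse hepatic stellate cells, the vitamin A storing pericytes of the liver that become matrix-producing myofibroblasts after injury. All cells were of the C57Bl/6 background, carried CMV-rtTA;TRE-GFP-shRNA.p53.1224 and grew in medium with 10% fetal bovine serum. In this system the cytomegalovirus promoter drives a transactivator that doxycycline switches on, which then expresses a green fluorescent marker and a hairpin RNA against p53. Doxycycline at 1 ug/ml was given to the proliferating group (3 arrays), whose p53 is described as knocked down, and the senescent group (3 arrays) is the control, in which p53 is expressed. Since the drug reached only 1 group, its own effect and that of the hairpin cannot be told apart. Whether the 3 arrays per group stand for different animals or culture dishes is not stated, so each p-value covers the spread among these arrays alone, and that spread may be technical. No age of the animals is stated.

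PDGFs are secreted dimers that bring together receptor tyrosine kinases at the cell surface, and the paired receptors then phosphorylate each other and recruit adaptors, lipid kinases and Src family kinases. The alpha receptor binds PDGF-A, PDGF-B and PDGF-C chains, and the beta receptor binds mainly PDGF-B and PDGF-D. PDGF-A and PDGF-B are cut to their active form inside the cell, while PDGF-C and PDGF-D are released latent and activated by proteases outside it. In the injured liver PDGF is known as a strong mitogen and attractant of stellate cells, and the beta receptor is a textbook marker of their activation. Serum, which was in the medium of both groups, is itself a source of PDGF released from platelets.

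Senescent cells had less RNA of both receptor genes and slightly more RNA of the ligand gene Pdgfa. The rise of Pdgfa was not seen with arrays scaled to spike-in RNAs, described further on. Pdgfb, Pdgfc and Pdgfd had no called change on the unscaled values. Pdgfra was 4.26-fold lower in its brightest probe set (log2 change -2.09 ± 0.20, SE, n = 3 per group) and Pdgfrb 2.46-fold lower (-1.30 ± 0.11). Of the 14 probe sets, 4 fell and 2 rose, or 8 and 0 with spike-in scaling, at a threshold of 0.05 for limma's p after Benjamini-Hochberg adjustment over all 45037 probe sets. The background was 6.39% of all probe sets lower and 5.99% higher, 12.4% together. With spike-in scaling the background was 36716 of the 45037 probe sets lower and 331 higher. The receptor probe sets numbered 5, so the 8 lower in that scaling included ligand probe sets, among them some of Pdgfb, Pdgfc or Pdgfd. The 2 family probe sets that rose on the unscaled values were those of Pdgfa. The arrays of the groups did not overlap for 7 of the 14, against 31.0% of all probe sets, and these 7 were the 5 receptor probe sets and the 2 of Pdgfa. The median log2 change was 0.078 over the 14 probe sets and 0.0021 over all probe sets. In RNA from whole cultures, fewer cells with the transcript and less transcript per cell cannot be told apart.

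The arrays of a group had correlations of 0.995 to 0.997 with each other and of 0.989 to 0.992 with the other group, taken over probe sets, which are not independent. On the second principal component, with 15.9% of the variance, proliferating replicate 1 scored 28.6, with the remaining 5 arrays from -22.1 to 11.7. The 24 probe sets of the poly-A spike-ins, bacterial RNAs added before labelling, read 0.60 higher (log2) on the senescent arrays. Their means, in values already normalised, were 10.72, 10.52 and 10.60 on the proliferating and 11.13, 10.99 and 11.51 on the senescent arrays. Scaling the arrays to the spike-ins moved the median of all probe sets to -0.59, so the changes given here are relative to the bulk of the array. The background level was set at 5.57, which 95% of 44 probe sets for olfactory receptors, by their mean, did not exceed. Of 14 stellate cell and myofibroblast markers, 10 had a mean above it, but Lrat, Reln and Gfap, markers of the quiescent cell, were below it on all 6 arrays. Of the 14, 5 markers fell (Cygb, Col3a1, Hand2, Col1a1 and Col1a2), where 8.22% of all genes were lower. All 6 mesothelial markers were above background, with 3 higher and 2 lower in senescent cells, and the list's mean level was 11.15 to 11.40 on the proliferating and 11.21 to 11.23 on the senescent arrays. The smooth muscle list had 3 of 6 higher (means of 7.01 to 7.35 and 7.49 to 7.59) and the portal fibroblast list 2 of 6 higher (8.72 to 8.82 and 8.77 to 8.95). Below background on all arrays were Alb, Cyp2e1 and Fgb of the hepatocyte list and Adgre1, Cd5l, Marco and Ptprc of the macrophage list. So were Pecam1, Tie1, Tek, Stab2 and Lyve1 of the endothelial list and Pf4 and Ppbp of the platelet list. Means above background were found for 4 of 7 hepatocyte, 4 of 8 macrophage, 2 of 8 endothelial and 3 of 5 platelet markers. Higher in senescent cells were 1 of 7 hepatocyte markers (list means of 5.39 to 5.64 and 5.51 to 5.76), 1 of 8 macrophage markers (5.43 to 5.49 and 5.57 to 5.68), 2 of 8 endothelial markers (5.58 to 5.69 and 5.75 to 5.82) and 1 of 5 platelet markers (6.16 to 6.28 and 6.24 to 6.32), where 7.60% of all genes were higher. Of the called markers, Myh11 of the smooth muscle list and Ppbp were below background on all arrays, Synpo2 on all but 1 and Cdh5 on the proliferating arrays. With spike-in scaling 0 markers of these lists were higher. Lower in that scaling were 12 of the 14 stellate cell and myofibroblast, 4 of the 6 portal fibroblast and 3 of the 6 mesothelial markers. So were 5 of the 7 hepatocyte, 5 of the 8 macrophage, 6 of the 8 endothelial, 3 of the 5 platelet and 1 of the 6 smooth muscle markers. Of all 45037 probe sets 36716 were lower in that scaling. The part of cell types whose markers moved was not tested.

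The windows of 250 bases before the annotated start are shown for the receptor gene with the largest fall and the ligand gene that rose, as the stretch a reader would inspect first. RefSeq windows (GRCm38.p6) matched 4 of the 6 genes, Pdgfa, Pdgfc, Pdgfd and Pdgfra. They are read 5′ to 3′ on the gene's strand, and capitals mark any match, on either strand, to a CCAAT box, the GC box GGGCGG, the TATA box TATAAA or the E-box CACGTG, motifs that do not contain one another. The Pdgfra window is chr5:75152001-75152250 (plus strand) and the Pdgfa window, the more upstream of 2 annotated starts, is chr5:138994945-138995194 (minus strand).
Pdgfra: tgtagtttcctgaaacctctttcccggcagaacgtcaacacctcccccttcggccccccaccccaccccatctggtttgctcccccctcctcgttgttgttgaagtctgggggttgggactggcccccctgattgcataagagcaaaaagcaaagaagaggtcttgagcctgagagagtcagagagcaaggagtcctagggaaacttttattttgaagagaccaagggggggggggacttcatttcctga
Pdgfa: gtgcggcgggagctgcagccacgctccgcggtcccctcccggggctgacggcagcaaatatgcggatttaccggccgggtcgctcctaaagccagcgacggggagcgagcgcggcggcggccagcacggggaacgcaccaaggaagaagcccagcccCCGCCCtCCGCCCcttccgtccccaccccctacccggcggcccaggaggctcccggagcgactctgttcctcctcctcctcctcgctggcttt
The Pdgfra window held none of these letters and had a GC content of 54.4%. The Pdgfa window had a GC content of 72.4% and held 2 matches to the GC box, both as its reverse complement, and the window of the other Pdgfa start held 1. Of all 32851 windows of this length, 33.8% held a CCAAT box, 32.7% the GC box, 12.4% the TATA box and 6.02% the E-box. A match here is a description of letters and not of binding.

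Pdgfra (Entrez gene 18595) encodes the alpha receptor. Its brightest probe set, 1421917_at, read 11.33, 10.62 and 10.51 (log2) on the proliferating arrays and 8.71, 8.81 and 8.65 on the senescent arrays. The lowest proliferating array was thus well above the highest senescent array, and the senescent arrays lay close together while proliferating replicate 1 stood above the other 2. The means were 10.82 ± 0.44 and 8.73 ± 0.08 (SD, n = 3), and the fall had a 95% interval of -2.54 to -1.64 and an adjusted p of 0.000587 (limma). By estimate it ranked 35 among the falls of all 45037 probe sets. Without proliferating replicate 1 the log2 change was -1.84 (limma, adjusted p = 1.05e-04).

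The other Pdgfra probe sets were dimmer and moved less. Probe set 1438946_at read 8.58, 7.58 and 7.52 on the proliferating arrays and 6.60, 6.80 and 6.78 on the senescent arrays. It fell by 1.17 ± 0.26 (SE) on the log2 scale, with an adjusted p of 0.0221 (limma), and again proliferating replicate 1 was the high array. Its call ended without senescent replicate 1, 2 or 3 (log2 changes of -1.10, -1.20 and -1.19, limma adjusted p of 0.0774, 0.0714 and 0.0693), each of which leaves a pair of senescent arrays. Probe set 1421916_at read 7.86, 6.71 and 6.94 on the proliferating arrays and 6.10, 6.31 and 6.44 on the senescent arrays. The groups did not overlap, but the log2 change of -0.89 ± 0.27 did not pass (limma, adjusted p = 0.0688). It passed without proliferating replicate 1 (-0.54, limma adjusted p = 0.0348) or 2 (-1.12, limma adjusted p = 0.0332). All Pdgfra probe sets were above background on all 6 arrays.

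Proliferating replicate 1 exceeded the mean of the other 2 proliferating arrays by 0.76, 1.03 and 1.03 (log2) in the 3 Pdgfra probe sets. The 2 probe sets of Pdgfc showed a gap of the same sign, 0.57 and 0.53, and those of Pdgfrb gaps of -0.11 and 0.093. Over all 45037 probe sets, 3.87% had a gap of more than 0.5 in either direction on that array, against 0.953% to 2.07% for the other 5 arrays. The spread of Pdgfra among proliferating arrays was therefore shared by its 3 probe sets and not by those of Pdgfrb.

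Pdgfrb (Entrez gene 18596) encodes the beta receptor, the main receptor for PDGF-B and PDGF-D. Probe set 1436970_a_at read 11.27, 11.49 and 11.27 on the proliferating arrays and 9.86, 10.11 and 10.17 on the senescent arrays. The 2 groups were far apart compared with their spread, with means of 11.34 ± 0.13 and 10.05 ± 0.16 (SD, n = 3), and the change had a 95% interval of -1.54 to -1.05 and an adjusted p of 0.00036 (limma). Probe set 1417148_at read 8.32, 8.31 and 8.14 on the proliferating arrays and 7.25, 7.28 and 7.11 on the senescent arrays, 2.07-fold lower (log2 change -1.05 ± 0.09, SE, limma adjusted p = 0.000366). Both Pdgfrb probe sets were lower on 3 of 3 senescent arrays, and each kept its call when any 1 array was left out, with ranges of -1.36 to -1.20 and -1.10 to -0.99.

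**Figure D1:**
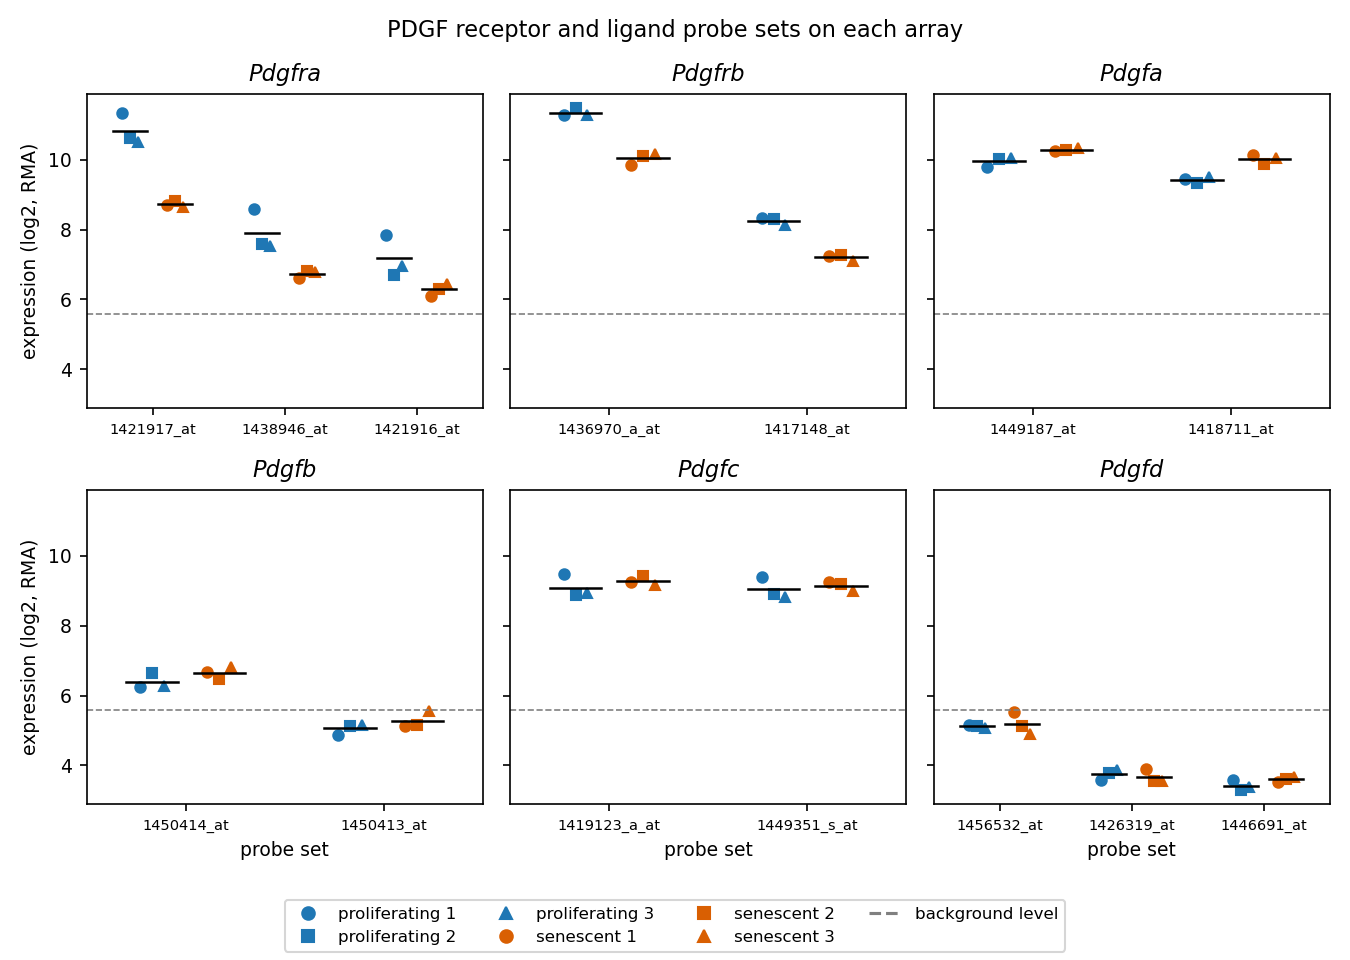
Log2 expression (vertical axis) of the 14 PDGF family probe sets (horizontal axis, by gene) on each array, with proliferating arrays in blue, senescent arrays in orange, the replicate shown by the symbol, group means as black bars and the background level of 5.57 as a dashed line. All 5 receptor probe sets are lower on the senescent arrays without overlap, the 2 of Pdgfa are higher on this scale (not with arrays scaled to the spike-ins), and all of Pdgfd lie below background.

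Whether the 2 receptor genes fell by different amounts was examined within arrays. The value of the brightest Pdgfra probe set minus that of the brightest Pdgfrb probe set changed by -0.79 ± 0.31 (log2, SE) from proliferating to senescent arrays, and without proliferating replicate 1 by -0.50. Permuting the arrays gave p = 0.1 (exact, two-sided), which is the lowest value possible with 3 arrays per group. The same p of 0.1 (exact permutation test, also 0.1 after Benjamini-Hochberg adjustment over the 4 pairs compared) was found between the 3 Pdgfra probe sets. There, 1421917_at changed by -0.92 ± 0.11 relative to 1438946_at and by -1.20 ± 0.18 relative to 1421916_at, and 1438946_at by -0.28 ± 0.10 relative to 1421916_at. Such a design cannot reach 0.05, so these differences stand as sizes with their errors.

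Pdgfa (Entrez gene 18590) encodes the A chain, a ligand of the alpha receptor. Probe set 1418711_at read 9.44, 9.33 and 9.52 on the proliferating arrays and 10.12, 9.87 and 10.06 on the senescent arrays. It rose by 0.59 ± 0.10 on the log2 scale (SE, limma adjusted p = 0.00637), higher on 3 of 3 senescent arrays, but its change was -0.0075 with arrays scaled to the spike-ins, which is still above the median of all probe sets in that scaling. Probe set 1449187_at, the brighter of the pair, read 9.80, 10.02 and 10.04 on the proliferating arrays and 10.24, 10.27 and 10.34 on the senescent arrays. The groups did not overlap but the gap was small, 0.33 ± 0.09, with an adjusted p of 0.0475 (limma) and a value of -0.27 with spike-in scaling. That call ended when any 1 of the 6 arrays was left out (0.26 to 0.37, limma adjusted p of 0.0803 to 0.128), and with the replicate number as a block (adjusted p = 0.0748). The rise of Pdgfa thus rests mainly on 1418711_at, which kept its call without any 1 array (0.54 to 0.66).

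Pdgfb (Entrez gene 18591) encodes the B chain, which binds both receptors. Its brighter probe set, 1450414_at, read 6.26, 6.65 and 6.28 on the proliferating arrays and 6.68, 6.48 and 6.81 on the senescent arrays. These values overlap, and the log2 change was 0.26 with a 95% interval of -0.04 to 0.57 (limma, adjusted p = 0.269). Probe set 1450413_at was below background on all 6 arrays, from 4.88 to 5.55, and so not well above background in either group. The interval leaves room for a rise of Pdgfb up to about that of Pdgfa.

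Pdgfc (Entrez gene 54635) encodes the C chain, a ligand of the alpha receptor. Probe set 1419123_a_at read 9.47, 8.88 and 8.93 on the proliferating arrays and 9.26, 9.43 and 9.18 on the senescent arrays. The highest value was that of proliferating replicate 1 and the groups overlapped, with a log2 change of 0.20 (95% interval -0.17 to 0.56, limma adjusted p = 0.518). Probe set 1449351_s_at, whose suffix marks probes shared by several transcripts, read 9.40, 8.91 and 8.83 against 9.24, 9.19 and 8.98, with a change of 0.089 (95% interval -0.26 to 0.44). Pdgfc was well above background on all arrays, so its level was measurable in both groups.

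Pdgfd (Entrez gene 71785) encodes the D chain, a ligand of the beta receptor. Its 3 probe sets lay below background on every array, between 4.90 and 5.52 for 1456532_at, 3.54 and 3.89 for 1426319_at, and 3.30 and 3.66 for 1446691_at. Differences between their groups are therefore not changes of a measured level. Of the 4 ligand genes, Pdgfa and Pdgfc were thus above background in both of their probe sets, Pdgfb in 1 of 2 and Pdgfd in 0 of 3.

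**Figure D2:**
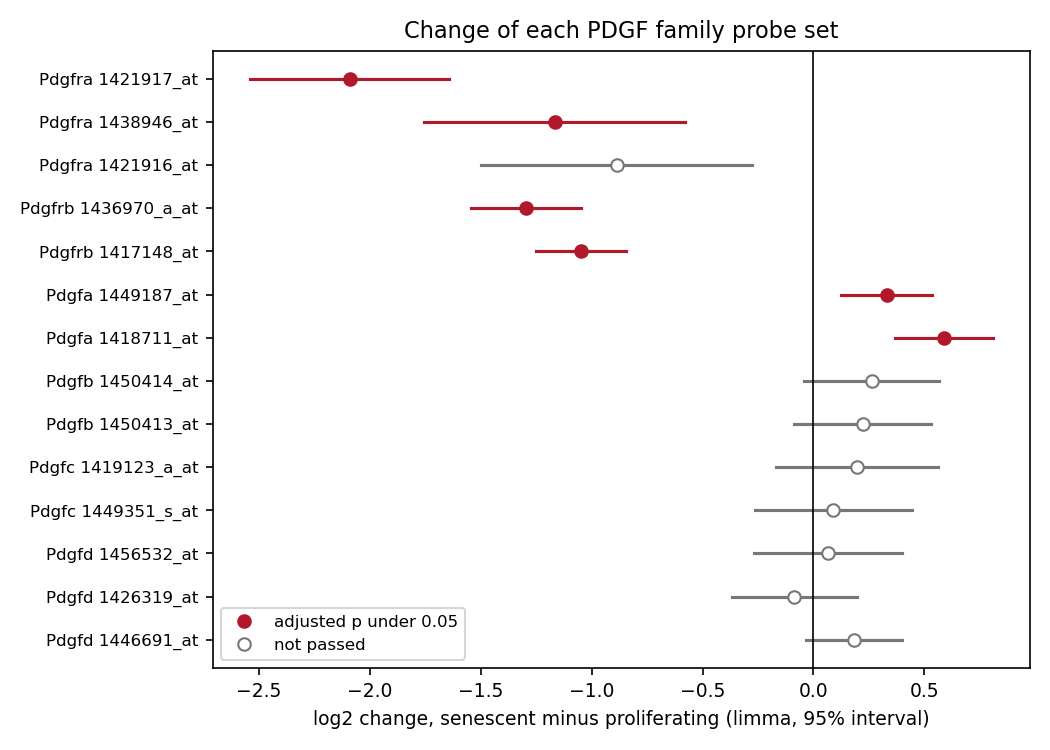
Log2 change, senescent minus proliferating (horizontal axis), of each PDGF family probe set with its 95% interval from limma (n = 3 arrays per group), filled where the adjusted p was under 0.05. The receptor probe sets lie between -2.09 and -0.89 and the ligand probe sets between -0.09 and 0.59 (those of Pdgfd and Pdgfb 1450413_at below background on all arrays, so not changes of a measured level), with only the 2 of Pdgfa called among the ligands (both at or below 0 with spike-in scaling).

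To see which genes shared the pattern of each called PDGF gene, values over the 6 arrays were centred on each gene's mean and compared by Euclidean distance with 12500 genes above background. Closest to Pdgfra were Ogn, which encodes the matrix proteoglycan osteoglycin (distance 0.24, Pearson r = 0.996), the ferritin receptor gene Scara5 (0.32, r = 0.994), the teneurin gene Tenm3 (0.42, r = 0.987) and the chromatin remodeller gene Smarca1 (0.43, r = 0.987). Their log2 changes were -2.07, -2.14, -2.15 and -2.08, and like Pdgfra they were highest on proliferating replicate 1. Such likeness follows from picking the genes by distance over these same 6 arrays. Closest to Pdgfrb were the claudin gene Cldn2 (0.24, r = 0.989), the sulfatase gene Arsi (0.33, r = 0.984), Hopx (0.33, r = 0.979) and the metalloproteinase gene Adam12 (0.33, r = 0.979), with changes of -1.23, -1.15, -1.29 and -1.29. Pdgfa was read here from its brightest probe set, 1449187_at, whose call ended when any 1 array was left out. Closest to it were Ccdc137, the glypican gene Gpc4, the AMP kinase subunit gene Prkab2 and Rwdd4a, at distances of 0.061 to 0.070. Their changes were 0.30 to 0.36 on the unscaled values, and Ccdc137 and Gpc4 were not called (limma, adjusted p = 0.0747 and 0.0534). These r values describe 6 points that share 2 groups, and how many other genes reach such values was not counted.

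The genes around the receptors were read from their brightest probe sets in 5 lists. Of 97 listed genes 89 were measured, and 20 rose and 12 fell, or 8 and 57 with spike-in scaling. In that scaling 331 of all 45037 probe sets were higher and 36716 lower. On the unscaled values 15.8% of all 18193 genes were called, 7.60% higher and 8.22% lower. The median log2 change was -0.0072, against -0.0018 over all genes. Without senescent replicate 1 or 2, or proliferating replicate 3, the number that rose was 12, and without proliferating replicate 2 it was 13.

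Of 13 genes that process or bind PDGFs, 3 rose and 3 fell, or 1 and 7 with spike-in scaling. Plat, tissue plasminogen activator, which activates PDGF-C, fell 2.29-fold (log2 change -1.19 ± 0.11, SE, limma adjusted p = 0.000587), though its other, dimmer probe set gave -0.055. Pdgfrl, which encodes a secreted protein resembling the receptors' ligand-binding part, fell 1.79-fold. Nrp1, a co-receptor that can bind PDGFs, fell by 0.47 (log2), with 2 of its 4 probe sets called. Tgm2, tissue transglutaminase, rose 2.07-fold (1.05 ± 0.08), with 5 of 6 probe sets called. The proprotein convertase genes Pcsk6 and Pcsk5 rose by 0.72 and 0.46, but with spike-in scaling Pcsk6 (0.13) was no longer called and Pcsk5 turned to -0.14. The call of Pcsk5 also ended with the mean of its probe sets (0.11), and it ended without any 1 array other than proliferating replicate 2 (0.34 to 0.52). Furin, which cuts the A and B chains, had a change of 0.18 (limma, adjusted p = 0.2), Plau, an activator of PDGF-D, 0.32 (adjusted p = 0.169), the endocytic receptor gene Lrp1 0.26 (adjusted p = 0.112) and the PDGF-binding matrix protein gene Sparc -0.047 (adjusted p = 0.753).

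Of 28 receptor-proximal signalling genes, 3 rose and 1 fell, with a median of -0.048, a share near that of all genes. With spike-in scaling 0 were higher and 23 lower (median -0.64), where 36716 of all 45037 probe sets were lower (median -0.59). Src, a tyrosine kinase that docks on active PDGF receptors, rose 1.61-fold (0.69 ± 0.08, limma adjusted p = 0.00158), in both of its probe sets, but was at 0.091 and not called with spike-in scaling. Its relative Fyn rose by 0.37 and the lipid kinase gene Pik3ca by 0.36, but both were below 0 with spike-in scaling (-0.23 each). On the unscaled values 1 of 2 Fyn probe sets and 4 of 6 Pik3ca probe sets were called. The call of Pik3ca ended without any 1 array (0.29 to 0.41), and that of Fyn without any 1 other than senescent replicate 3 (0.31 to 0.38). The adaptor gene Gab1 fell by 0.56 ± 0.09, in 2 of 3 probe sets. Without proliferating replicate 1 the list had 1 higher and 2 lower.

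Of 17 negative regulators, 1 rose and 2 fell, with a median of -0.15, again a share near that of all genes. Cblb was not called in its brightest probe set. On the unscaled values 2 of its 3 probe sets were called higher (0.79 and 0.45, limma adjusted p = 0.00447 and 0.038). In the spike-in scaling 0 were higher and 13 lower (median -0.75), where 36716 of all 45037 probe sets were lower. Socs3, an inhibitor of cytokine receptor signalling, fell 2.28-fold (-1.19 ± 0.20, limma adjusted p = 0.0069), in all 3 of its probe sets, and was also highest on proliferating replicate 1. Grb10, an adaptor that restrains growth factor receptors, fell 1.57-fold, with 1 of its 3 probe sets called. Spry2, an inhibitor of the Ras pathway, rose by 0.55, with 1 of 2 probe sets called, but was at -0.045 with spike-in scaling. Its call ended without proliferating replicate 2 or 3 or senescent replicate 1 or 2 (0.53, 0.49, 0.55 and 0.47). Of 6 related class III receptors and ligands, 3 rose and 1 fell, or 0 and 3 with spike-in scaling. The macrophage growth factor gene Csf1 rose by 0.55 and its receptor gene Csf1r by 0.35, and both were below 0 with spike-in scaling (-0.042 and -0.25). On the unscaled values 4 of 4 Csf1 probe sets and 1 of 3 Csf1r probe sets were called. Il34, which encodes another ligand of that receptor, was called higher with values at the background level, 5.34, 5.58 and 5.59 on the proliferating and 5.88, 5.88 and 5.90 on the senescent arrays. Calls ended for Il34 without any 1 array and for Csf1r without any 1 other than senescent replicate 3 (0.32 to 0.38). Kitl, which encodes stem cell factor, fell by 0.62, with 2 of its 4 probe sets called. Kit itself was below background.

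**Figure D3:**
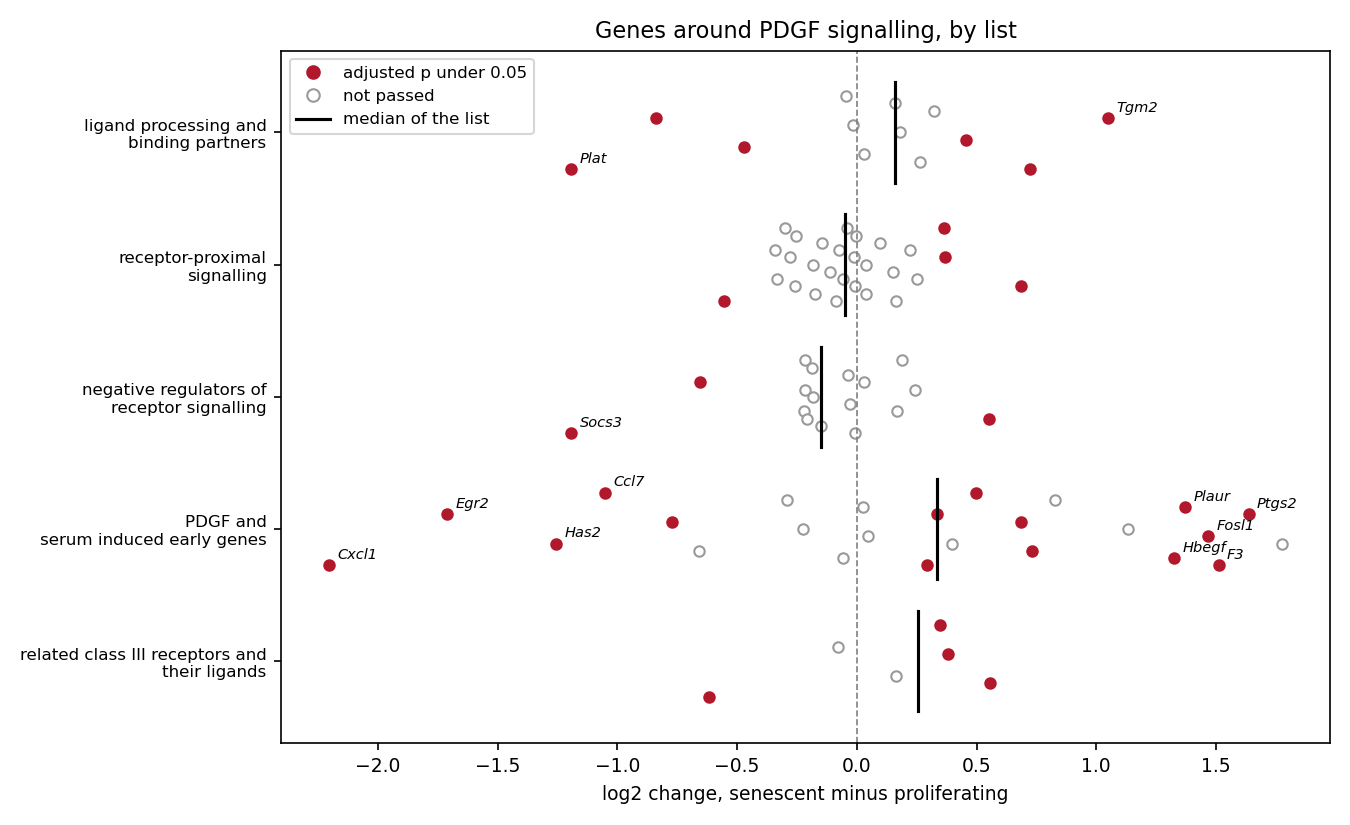
Log2 change, senescent minus proliferating (horizontal axis), of each gene of the 5 lists around PDGF signalling, filled where the adjusted p was under 0.05, with the list's median as a black bar and the names of called genes with changes beyond 1 in either direction. Of the receptor-proximal genes 4 of 28 are called, against 15.8% of all genes, and the early genes spread from -2.21 to 1.78. With spike-in scaling 23 of 28 receptor-proximal genes are called, all lower, where 36716 of all 45037 probe sets are lower.

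Genes that PDGF or serum is known to induce within hours went both ways. Of 25, 10 rose and 5 fell, with a median of 0.33, and 13 rose and 5 fell without proliferating replicate 1. With spike-in scaling 7 were higher and 11 lower, with a median of -0.26. In that scaling 331 of all 45037 probe sets were higher and 36716 lower, with a median of -0.59. The 5 that fell were the chemokine genes Cxcl1, Ccl7 and Ccl2, the hyaluronan synthase gene Has2 and the transcription factor gene Egr2. Cxcl1 and Ccl2 were first isolated as PDGF-induced transcripts, and they were 4.61-fold and 1.71-fold lower (limma, adjusted p = 3.42e-05 and 0.00867). Has2 was 2.39-fold and Ccl7 2.07-fold lower. Egr2 was 3.28-fold lower, with SDs of 1.03 on the proliferating and 0.26 on the senescent arrays. The call of Egr2 ended when senescent replicate 1, 2 or 3 (-1.86, -1.67 and -1.61) or proliferating replicate 2 (-1.90) was left out, and without proliferating replicate 1 its change was -1.13. Among called genes, the largest rises were those of Ptgs2, cyclooxygenase 2 (3.11-fold), F3, tissue factor (2.85-fold), Fosl1 of the AP-1 family (2.77-fold), Plaur, the urokinase receptor (2.59-fold), and Hbegf, an EGF family ligand (log2 change 1.32).

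Several of these early genes stood apart on proliferating replicate 1, the array on which Pdgfra was highest. On that array 6 of 25 early genes exceeded the mean of the other 2 proliferating arrays by more than 1 (log2), against 46 of all 18193 genes. The gap was 2.67 for Nr4a1, 1.97 for Fos, 1.75 for Egr2, 1.40 for Dusp1 and 1.05 for Ier3. The sixth, Fosb, read 7.88 on that array and was not above background on the other 2. Fos read 13.13, 11.43 and 10.89 on the proliferating arrays and 11.63, 11.70 and 11.45 on the senescent arrays, with no call (-0.23, limma adjusted p = 0.835, with -0.82 and a call under spike-in scaling), and without proliferating replicate 1 its change was 0.43. Nr4a1 read 11.10, 8.42 and 8.44 against 11.34, 10.92 and 11.03, and its change did not pass (1.78, limma adjusted p = 0.121) but passed without proliferating replicate 1 (2.67) and with spike-in scaling (1.18). Fosb was below background on proliferating replicates 2 and 3 (4.87 and 4.95) and above it on the senescent arrays (6.66, 6.67 and 6.86), so its size of change is not given as a level difference. The part of this difference between arrays in the levels of Pdgfra was not tested, and the fall of Pdgfra without that array is given above.

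**Figure D4:**
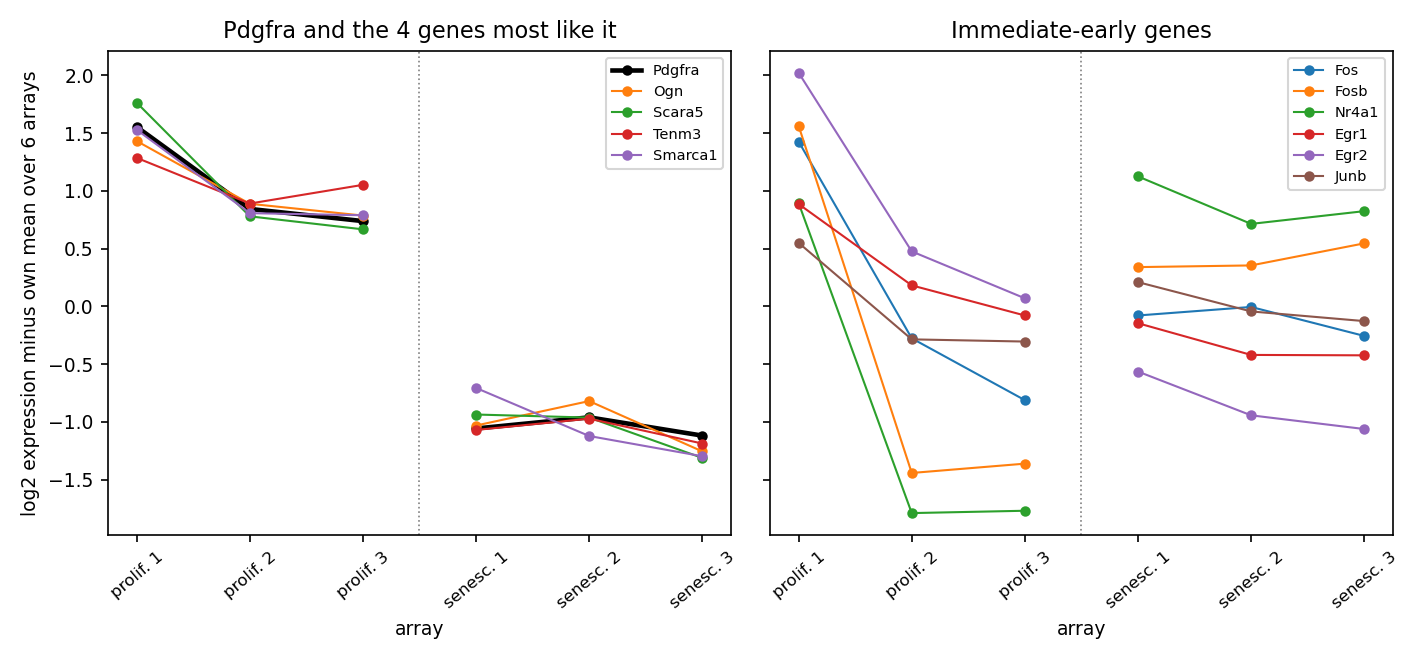
Log2 expression minus each gene's own mean over the 6 arrays (vertical axis) by array (horizontal axis), for Pdgfra with the 4 genes closest to it (left) and for 6 immediate-early genes chosen after their values were seen (right). Pdgfra and its neighbours, picked for likeness over these arrays, are highest on proliferating replicate 1 and low on all senescent arrays. Fos, Fosb and Nr4a1 are high on proliferating replicate 1 and at middle or high levels on the senescent arrays. Fosb is below background on the other 2 proliferating arrays.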

How the data were processed

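RNA was extracted with Trizol and 6 ug was labelled with biotin and hybridised to Affymetrix arrays, per the labels' protocols. The authors deposited 1 log2 value for each probe set and array, and the submitters' processing notes name RMA (robust multi-array average, which corrects background, equalises the arrays' distributions and summarises probes). No software version or batch is stated. Of 45101 probe sets, 64 controls were left out of the fit. The platform annotation gave 34945 of the rest 1 gene, 932 several and 9160 none, and 34741 symbols were updated through the Entrez number with a RefSeq table (GRCm38.p6). Array medians were 6.15 to 6.19, and the number of arrays limits the precision.

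Senescent minus proliferating was fitted over 45037 probe sets with lmFit and eBayes (limma 3.58.1, R 4.3.3) without covariates, with Benjamini-Hochberg adjustment and a threshold of 0.05 (median SE 0.0982, 4 residual and 4.09 prior degrees of freedom). On simulated data with these means and spreads over 45037 probe sets, the fit recovered 43.3% of 67 probe sets changed by 0.5, 100% of 67 changed by 1 and 100% of 66 changed by 2 (log2), with 14 false calls among 176. Far fewer probe sets were changed there than the 5579 called in the real data, and the noise was independent between probe sets. The shares recovered are therefore not the power of the real fit. Genes were read from the probe set with the highest mean. Single differences between probe sets were compared with exact permutation tests (scipy 1.17.1, Python 3.11.15). Figures used matplotlib 3.10.9.

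The members and lists were chosen with earlier results of these data known. Genes named are all PDGF genes, up to 4 called genes per list by size (all where 5 or fewer were called), Plat, Plau, Furin, Nrp1, Lrp1 and Sparc, and the 4 closest genes. Pcsk5, Has2, Ccl7, Ccl2, Fosl1, Plaur, Hbegf and the immediate-early genes were named after their values were seen. Of 97 listed genes, 8 were not analysed here. Replicate numbers are shared between the groups, but same-numbered arrays did not deviate together (correlations of 0.11, -0.11 and -0.16), so they were not treated as pairs. Alternatives covered scaling, variance model, filters, replicate block, arrays left out and the probe set read.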

Additional observations from a re-analysis of the deposited data

How the results depend on the processing

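The falls of Pdgfrb and of Pdgfra 1421917_at kept direction and call under every alternative run (scaling, variance model, filters, block, arrays left out). With arrays scaled to the poly-A spike-ins, where the median of all probe sets was -0.59, 331 probe sets were higher and 36716 lower, 0 and 8 of the PDGF family and 8 and 57 listed genes. Signs then turned for Pdgfa (-0.27 for 1449187_at, -0.0075 for 1418711_at), Pdgfb (-0.33 for 1450414_at, -0.37 for 1450413_at), Pdgfc (-0.40 for 1419123_a_at, -0.51 for 1449351_s_at), Pdgfd (-0.53 for 1456532_at, -0.41 for 1446691_at), Fyn (-0.23), Pik3ca (-0.23), Spry2 (-0.045), Csf1 (-0.042), Il34 (-0.21), Csf1r (-0.25), Plau (-0.28), Furin (-0.42), Lrp1 (-0.33), Pcsk5 (-0.14) and Junb (-0.57), while Pdgfra 1421916_at (-1.48) passed. The value of Pdgfd 1426319_at was -0.68. All Pdgfd probe sets and Pdgfb 1450413_at were below background on all arrays, so their values here are shifts of background signal. Each such sign is set by the shift of the whole array. Without moderation 1324 probe sets were higher and 1265 lower, 0 of the PDGF family were higher, 11 and 5 listed genes were called, and calls ended for Pdgfa (0.33 and 0.59, adjusted p of 0.113 and 0.0534) and Pdgfra 1438946_at (-1.17, adjusted p = 0.164). Pdgfra 1421916_at (-0.89) passed with a robust variance trend (adjusted p = 0.0443) and among probe sets above the median level (adjusted p = 0.0497). With the replicate number as a block, 1 PDGF family probe set was higher, since Pdgfa 1449187_at (0.33) no longer passed (adjusted p = 0.0748), calls also ended for Fyn, Pik3ca, Il34 and Csf1r, Egr1 passed, and 2066 probe sets were higher and 2163 lower.

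With 1 array left out, probe sets called higher ranged from 1632 to 2609 and lower from 1578 to 2689, PDGF family probe sets higher were 1 and lower 3 to 5, and listed genes higher were 12 to 18. The ranges were 0.26 to 0.37 for Pdgfa 1449187_at, -1.35 to -0.82 for Pdgfra 1438946_at, -1.12 to -0.54 for Pdgfra 1421916_at, -0.020 to 0.27 for Pdgfc 1449351_s_at, -0.10 to 0.21 for Pdgfd 1456532_at, -0.69 to 0.43 for Fos and -0.12 to 0.31 for Junb. With background at the 90th percentile of olfactory receptors, 2 PDGF family probe sets in place of 4 were below it on all arrays. The cause of these differences was not tested. Signal over background limits Pdgfb and Pdgfd.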
